A study of Rattus norvegicus with 3 samples.

Results

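The inhibitor BVT.2733 was added to cardiomyocytes carrying an 11β-HSD1 vector, and the array of those cells, HSD1+BVT, was set against the array of cells with the vector alone, HSD1. These are 2 of the 3 arrays of the series, and 11701 of the 15155 genes on them were measured on both, meaning that the gene's probe was well above background on each. The study asked how 11β-HSD1 acts on cardiomyocyte hypertrophy. All 3 groups were neonatal rat ventricular cardiomyocytes: Control received an empty vector, HSD1 received an expression vector for 11β-HSD1, and HSD1+BVT received that expression vector together with BVT.2733. RNA of each group came from 1 pool of cells, was labelled with Cy3 and was read on 1 Agilent array. The sources used here do not give the inhibitor dose, the exposure time, the number of cultures in a pool, the species of the vector insert or any addition of glucocorticoid. No array carried the inhibitor without the vector.

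11β-HSD1 is an enzyme of the endoplasmic reticulum that turns inert 11-keto glucocorticoids back into cortisol or corticosterone, which then act through the glucocorticoid receptor. It draws its reducing power from NADPH made in the same compartment by hexose-6-phosphate dehydrogenase (H6pd). BVT.2733 is a small-molecule inhibitor of this enzyme. Heart muscle burns fatty acids as its main fuel, and nuclear receptors of the PPAR family, which fatty acids bind, switch on many of the genes for it.

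Levels are log2 of the processed signal with the array's 75th percentile set to 0, so a level can be compared between arrays for 1 gene but not between genes. The log2 ratio is the HSD1+BVT level minus the HSD1 level. With 1 array per group there was no spread between cultures to measure and no test, so a gene is called higher or lower by size alone, at 2-fold or more. Control is given beside these as the level with the empty vector and no inhibitor, and the differences of HSD1 and of HSD1+BVT from Control share the Control array, as both inhibitor and vector differences share the HSD1 array. The signal at the 75th percentile was 1164 to 1543 over the 3 arrays, 81.2% to 82.5% of spots were well above background and no spot was saturated. Across 1390 probes printed 10 times, a ratio of single spots had a median technical SD of 0.069, or 0.19 in the dimmest of 4 equal bins of them, which covers the array reading and not the cells. HSD1+BVT was the array read in scan 2, with the other arrays in scan 1, so the inhibitor and the scan cannot be told apart. All 15 cardiomyocyte markers on the array were measured, and their ratios had a median of 0.06 with none called.

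The array with inhibitor was close to the array without it. Their levels correlated at r = 0.99 across genes, the median ratio was 0.01, 51.2% of ratios lay above 0, the middle of the distribution (its 25th to 75th percentile) ran from -0.17 to 0.18, and 95% of ratios lay between -0.66 and 0.82. Of the 11701 genes, 241 were 2-fold or more apart (2.06%). The calls leaned to one side, with 173 higher (1.48%) and 68 lower (0.581%). Of 16 genes at 4-fold or more, 14 were higher. Among genes above the median level over the 3 arrays, 47 of 5850 were higher (0.803%) and 7 were lower (0.12%). These percentages are the background against which each count below is read.

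**Figure D1:**
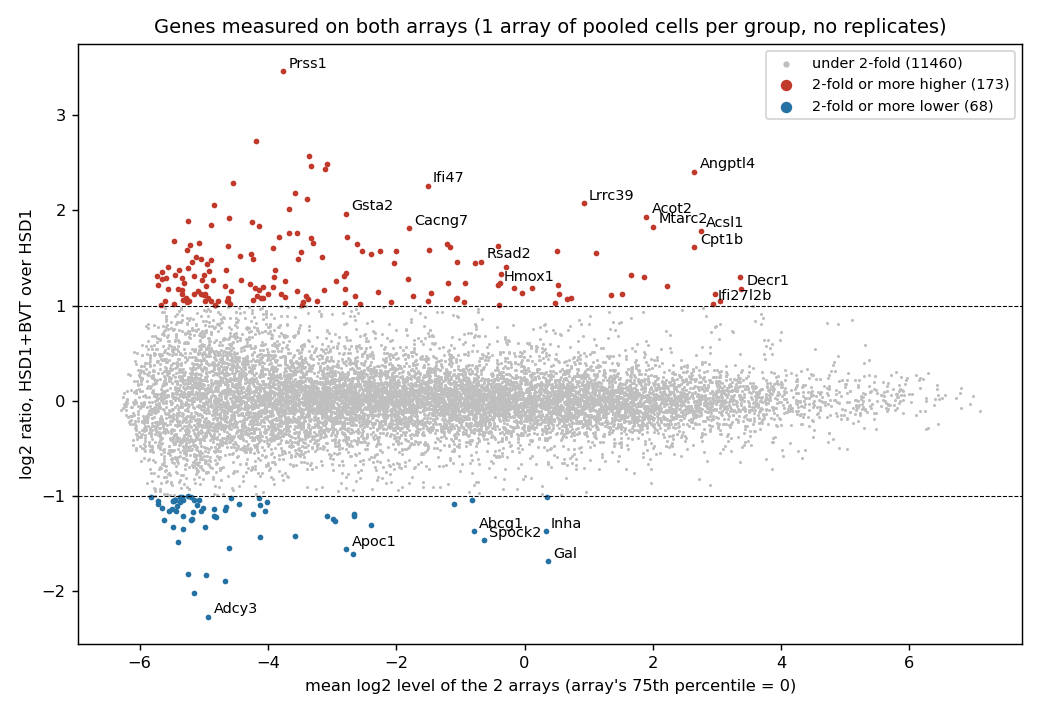
Each point is 1 of 11701 genes, with the mean log2 level of the HSD1 and HSD1+BVT arrays on the x axis and the log2 ratio of HSD1+BVT over HSD1 on the y axis; dashed lines mark 2-fold. The 173 higher genes (red) outnumber the 68 lower ones (blue), and most called genes lie at low levels, where ratios spread most.

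Hsd11b1, the targeted gene, read 3.39 in Control, 3.86 in HSD1 and 3.77 in HSD1+BVT. The inhibitor array thus stood 0.09 below the vector array (ratio -0.09), and neither array was 2-fold from Control. The labels do not say from which species the transfected coding sequence came, and RNA made from the vector may therefore go undetected by this rat probe. H6pd had a ratio of 0.38 and its other probe 0.88. Nr3c1, the glucocorticoid receptor, had a ratio of -0.06.

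Genes of mitochondrial fatty acid oxidation were the function with the most called members for its size among those of metabolism. Of 30 measured members, 6 were higher and 0 were lower, 26 had ratios above 0 and the median ratio was 0.49, beside 1.48% higher and a median of 0.01 over all genes. Against Control the list's median was 0.01 for HSD1 and 0.53 for HSD1+BVT. All 6 were among the 25 members above the median level, where the median ratio was 0.69, and over the alternative settings the list's median ran from 0.44 to 0.69.

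The carnitine shuttle carries long-chain acyl groups into the mitochondrion, and 2 of its 7 measured members were higher. Slc25a20, the carnitine-acylcarnitine carrier of the inner membrane, read -1.70 in Control, -1.97 in HSD1 and -0.35 in HSD1+BVT. It was 3.07-fold higher with inhibitor, and the 2 arrays without inhibitor lay close together. Cpt1b, the muscle form of the enzyme that loads acyl groups onto carnitine, read 1.33, 1.84 and 3.45 in the same order. This made it 3.05-fold higher, while its other probe gave a ratio of 0.48, so the size depends on the probe. Cpt1a, the liver form, had a ratio of 0.96, just under the threshold. Crat, which moves acetyl groups onto carnitine, read 2.40, 2.38 and 3.28, a ratio of 0.89. The shuttle was not uniform: Cpt2, which takes the acyl group back off carnitine inside the mitochondrion, had a ratio of 0.24, the carnitine importer Slc22a5 -0.05 and the brain form Cpt1c -0.33.

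Inside the mitochondrion, the oxidation cycle itself stood above 0 at nearly every step. The 6 acyl-CoA dehydrogenases, which take the opening step of each round, all had ratios above 0 (median 0.45) and none was called. Acadl, for long chains, read 4.58, 4.49 and 5.29 (ratio 0.81), whereas Acad9, which also helps to assemble complex I, had a ratio of 0.05. Acaa2, the thiolase that ends the round, read -1.09, -1.03 and 0.30 and was 2.51-fold higher. Ech1, an isomerase for unsaturated chains, read -1.41, -1.0 and 0.41 and was 2.65-fold higher. Both subunits of the trifunctional protein fell short of the threshold together, Hadha at 0.93 and Hadhb at 0.81. Echs1, the short-chain hydratase, was the exception in this group at -0.11.

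The auxiliary and electron-passing steps held the other called members. Decr1, the reductase needed for polyunsaturated chains, read 2.79, 2.79 and 3.97 and was 2.25-fold higher. Etfdh, which hands electrons from the dehydrogenases to ubiquinone, read 1.00, 0.79 and 1.90 and was 2.15-fold higher. Its partners Etfa and Etfb had ratios of 0.41 and 0.21. Of the 3 measured enzymes that set malonyl-CoA, the brake on carnitine loading, Mlycd, which removes it, had a ratio of 0.69. Acaca and Acacb, which make it, differed in sign at -0.49 and 0.37, and both lay below the median level. The median of the 3 was 0.37, or -0.14 by normexp.

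**Figure D2:**
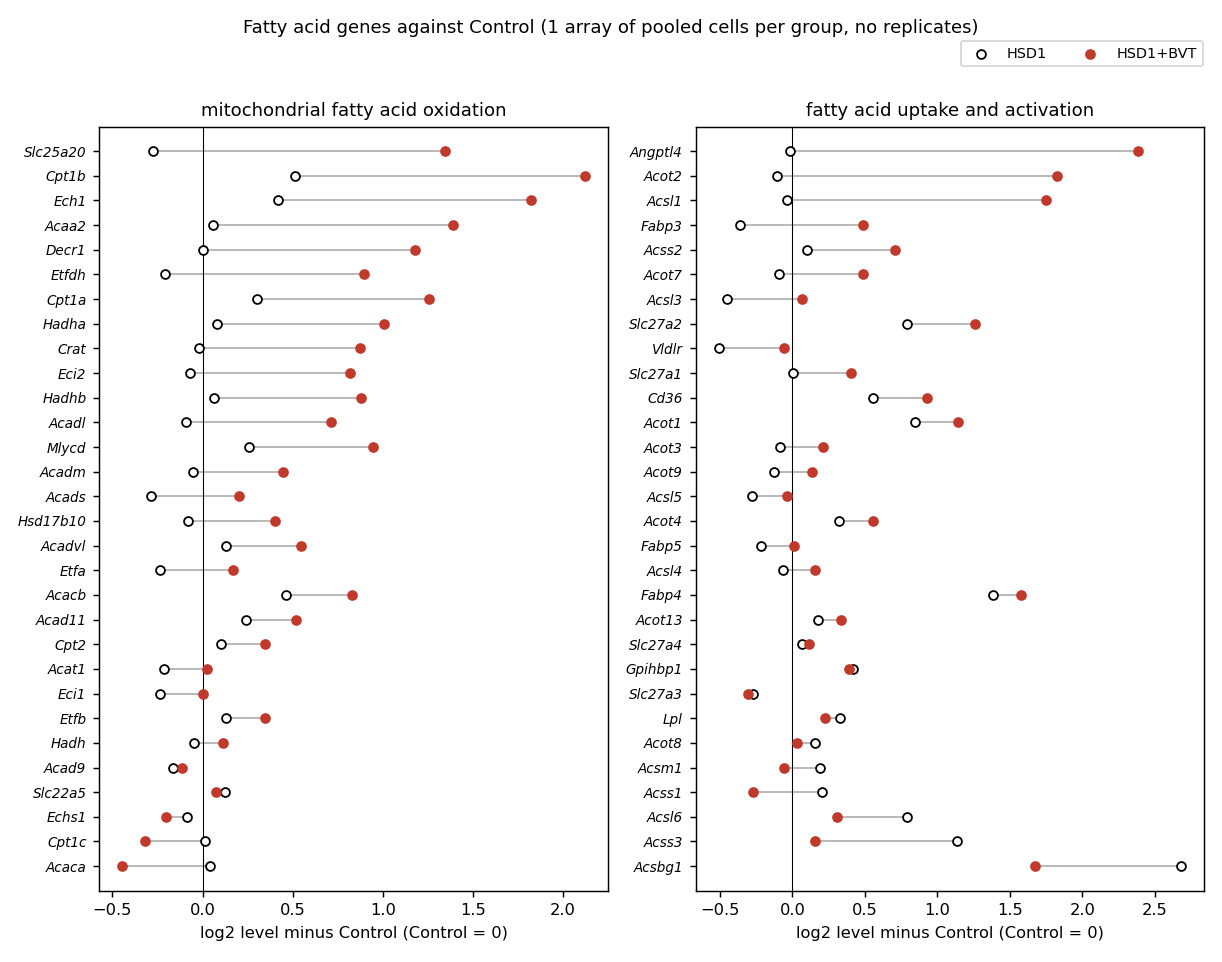
Log2 level minus Control (x axis) for each measured gene of fatty acid oxidation (left) and of fatty acid uptake and activation (right), with HSD1 as open circles and HSD1+BVT as red points, 1 array each. In the left panel 26 of 30 red points lie right of their open circle, and in the right panel Angptl4, Acot2 and Acsl1 are set apart at the top and Acsbg1 at the bottom.

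Upstream of the mitochondrion, 3 of 30 measured genes of fatty acid uptake and activation were higher and 1 was lower (median 0.24, 21 above 0). Angptl4, a secreted inhibitor of lipoprotein lipase, read 1.46, 1.44 and 3.85 and was 5.30-fold higher, the largest ratio among genes that met the rule for signal and settings given under the processing. Acsl1, the main long-chain acyl-CoA synthetase of the heart, read 1.89, 1.86 and 3.64 and was 3.45-fold higher. Acot2, the mitochondrial thioesterase that undoes this activation, read 1.03, 0.93 and 2.86 and was 3.82-fold higher, with 1.36 from its other probe. For all 3 genes HSD1 was within 0.11 of Control, and the inhibitor array stood apart. Acsbg1, the bubblegum acyl-CoA synthetase, had another pattern: it read -1.83 in Control, 0.85 in HSD1 and -0.16 in HSD1+BVT, 2.01-fold lower than in HSD1 but above Control. Its ratio of -1.01 was -0.99 by normexp and by cyclic loess, under 2-fold. As groups the 10 synthetases had a median of -0.01 and the 8 thioesterases 0.28. Lpl, the lipase itself, had a ratio of -0.10, the transporter Cd36 0.38 and the heart binding protein Fabp3 0.85.

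Storage genes added 2 calls. Fitm2, a protein of the endoplasmic reticulum needed for lipid droplet formation, read 0.00, 0.12 and 1.19 and was 2.10-fold higher, with a ratio of 0.95 from its other probe. Gpat3, which begins triglyceride synthesis, was 2.07-fold higher from the low levels of -5.41 and -4.37, and its ratio was 0.15 after another background correction (normexp). These were 2 of 25 measured genes of droplets and triglycerides (median 0.19), where the coat protein Plin2 had a ratio of 0.58 and the lipase Pnpla2 0.74. The uncoupling proteins Ucp2 and Ucp3 had ratios of 0.82 and 0.79, and that of Ucp3 was -0.06 with normexp.

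Promoters of fatty acid genes were searched for the sequence that PPARs and other nuclear receptors bind, a direct repeat with 1 base between its copies (AGGTCANAGGTCA, either strand, up to 2 mismatches). The promoter was the stretch from 250 bases before to 50 after the gene start, from RefSeq on build GRCr8. The repeat was found in 6 of 23 promoters of fatty acid oxidation genes (26.1%) and 3 of 24 of uptake and activation genes (12.5%), with 1 of 21 of lipid droplet and triglyceride genes (4.76%) and 1 of 9 of ketone body and uncoupling genes (11.1%), beside 3.72% of all 27456 promoters and 3.0% of those of 9563 measured genes. Of the called oxidation genes, Slc25a20 and Etfdh had a promoter in the table, and Slc25a20 held a match. It is shown because its gene had the highest ratio of the list, and Acadvl, the very-long-chain dehydrogenase with a ratio of 0.42, is shown beside it because its match was closer, a choice made after the values were seen. Capitals mark the match, which lies at 15 to 27 from the gene's first base (base 0) in Slc25a20 (chr8:118243580-118243608, plus strand, 2 mismatches) and at -17 to -5 in Acadvl (chr10:55236706-55236747, minus strand, 1 mismatch). Both are written in the direction of the gene.
Slc25a20: cttaatgtAGGTGAAAGGTCGgtgtagcc
Acadvl: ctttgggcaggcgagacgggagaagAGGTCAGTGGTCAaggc
A match in a promoter is a description of its letters, and binding was not measured. The promoters of Angptl4, Acot2 and Acsl1 held no match in this window.

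The regulators of these genes, and the mitochondrial machinery downstream of them, held few calls. None of 18 PPAR, ERR and PGC-1 genes was called (median -0.05). Ppara had a ratio of -0.14 and Ppargc1a, the coactivator of mitochondrial biogenesis, 0.17. Ppard came nearest to a call at 0.98, but its other probe gave -0.08. Of 29 peroxisomal genes 0 were called (median 0.09), with the highest ratio in Cat, the peroxide-splitting catalase, at 0.97. The 20 genes of the tricarboxylic acid cycle had ratios from -0.38 to 0.32 (median 0.15) and the 54 of the respiratory chain and ATP synthase had a median of -0.01, with 25 above 0 and none called. Within the chain, Cox4i2, an alternative subunit of cytochrome oxidase, stood at 0.75 and the lowest ratio was -0.26. The 36 genes of glycolysis and glucose uptake were likewise uncalled (median 0.04, 23 above 0). Their ratios ran from -0.71 in Eno3, the muscle enolase, to 0.57 in Ppp1r3a, a glycogen gene. Slc2a4, the insulin-regulated glucose transporter, had a ratio of -0.51 and Aldoc, a glycolytic enzyme, 0.52. Among 18 genes of pyruvate entry, Pdk4, the kinase that shuts pyruvate dehydrogenase, was 3.58-fold higher at levels of -6.25, -5.81 and -3.97. Its signal was low and normexp gave a ratio of 0.64.

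**Figure D3:**
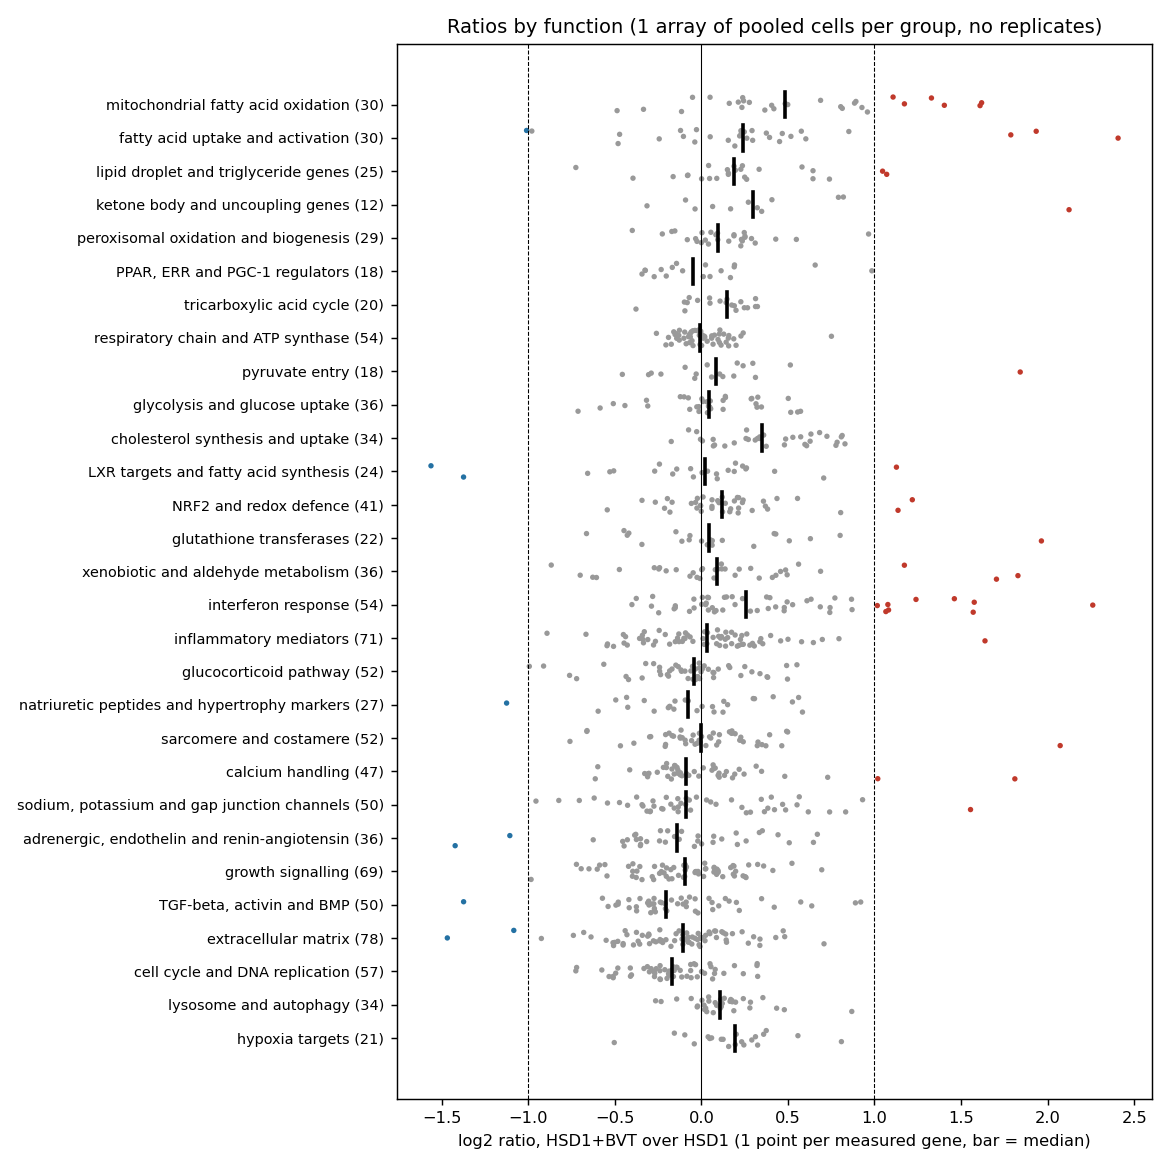
Log2 ratio of HSD1+BVT over HSD1 (x axis) for each measured gene of 29 functions (y axis, number of measured genes in brackets); black bars are medians, dashed lines mark 2-fold, and red and blue points are higher and lower genes. Medians stand furthest right for fatty acid oxidation (0.49) and cholesterol synthesis and uptake (0.35), and near 0 for the respiratory chain (-0.01).

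Cholesterol synthesis enzymes had small ratios of 1 sign. All 21 of them lay above 0 (median 0.49, highest 0.81), 20 under the other scalings of the arrays and 18 with normexp, yet 0 of the list's 34 measured genes were called. Against Control the enzymes' median was -0.16 in HSD1 and 0.29 in HSD1+BVT, so the vector array was the lowest of the 3 and the inhibitor array the highest. Hmgcs1, which makes the HMG-CoA that feeds the pathway, read 4.52, 4.31 and 5.13, a ratio of 0.81. At the other end of the range, Fdft1, squalene synthase, had a ratio of 0.01. Insig1, the sterol sensor that SREBP-2 itself induces, had a ratio of 0.83 and the cholesterol carrier Stard4 0.78, whereas Srebf2, which encodes SREBP-2, had a ratio of 0.14. The sterol element TCACNCCAC, searched on both strands without mismatches, was in 0 of 25 promoters of this list and in 1.13% of all promoters.

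Sterol export held lower genes. Apoc1, an apolipoprotein of lipoprotein particles, read -1.96, -2.0 and -3.56 and was 2.95-fold lower. Abcg1, which exports cholesterol from cells, read 0.10, -0.10 and -1.48 and was 2.59-fold lower. Its partner Abca1 had a ratio of -0.66. These belong to 10 measured genes of the liver X receptors and sterol export, the receptors Nr1h2 and Nr1h3 among them, of which 2 were lower, 0 were higher and 3 had ratios above 0 (median -0.11). Scd, the desaturase that makes oleate, was the called member of 14 fatty acid synthesis genes: it read -0.03, -0.61 and 0.52 and was 2.18-fold higher.

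The interferon response held the most called genes of the lists by function. Of 54 measured members, 9 were higher (7 with normexp) and 0 lower. Ratios lay above 0 in 43, with a median of 0.26. This median was 0.08 with normexp. Relative to Control the list's median was -0.51 in HSD1 and -0.20 in HSD1+BVT. In all 9 called genes HSD1 was the lowest array, and in 8 of them HSD1+BVT lay within 2-fold of Control. A call by the ratio to HSD1 favours genes that read low on that array, so this pattern is partly set by the choice.

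By role, 6 of the 9 calls were effectors, which made up 34 of the 54 measured members. Ifit3, an antiviral protein of the IFIT family, read -1.29 in Control, -2.79 in HSD1 and -1.22 in HSD1+BVT (2.97-fold higher than in HSD1). Rsad2, the antiviral enzyme viperin, read 0.42, -1.40 and 0.06 (2.75-fold). Ifi44 read 1.20, 0.18 and 1.26 (2.11-fold). All 3 had their lowest level in HSD1 and were within 0.36 of Control on the inhibitor array. Isg15, a ubiquitin-like modifier, read 0.41, -1.59 and -0.51 and was 2.12-fold higher. Rtp4, a receptor chaperone, read 0.10, -1.60 and -0.53 and was 2.09-fold higher. Ifi27l2b read 3.88, 2.42 and 3.44 and was 2.02-fold higher, with 0.90 from its other probe. These 3 lay between the other arrays, below Control and above HSD1; with normexp the ratios of Isg15 and Rtp4 were 0.95 and 0.91.

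Usp18, which strips Isg15 from proteins, read -1.91, -3.33 and -1.75 and was 2.98-fold higher, with 1.69 from its other probe. Irf7, the transcription factor that amplifies the response, read 0.24, -1.0 and 0.24 and was 2.36-fold higher. Ifi47, a GTPase of the immunity-related family, was the member that stood 2-fold or more above Control: it read -1.44, -2.64 and -0.38, 4.79-fold higher than HSD1 and 2.08-fold higher than Control. The feedback genes Socs1 and Socs3 had ratios of 0.87 and 0.77. The lowest member was Ifitm2, a membrane protein that blocks virus entry, at -0.40. Close copies of Oas1 that were not in this list, and so not in its counts, gave opposing calls at low signal. Their ratios were 1.09 in Oas1i, 1.12 in Oas1f and -1.16 in Oas1h, and probes of such near-identical genes may not tell them apart.

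Promoters of this list were searched for the core that interferon-activated factors bind (GAAANNGAAA, either strand, no mismatch). It was in 27 of 42 promoters (64.3%), beside 3.77% of all promoters and 3.07% of those of measured genes. Promoters were given for 5 called members, of which 4 held it, and these are shown to set the element beside the genes that differed; Ifi47 held none in this window. Capitals mark the match, here on the strand opposite to the gene in each case. It lies at -44 to -35 in Ifit3 (chr1:241527257-241527316, plus strand), -147 to -138 in Rsad2 (chr6:48788233-48788292, minus strand), -69 to -60 in Irf7 (chr1:205800058-205800117, minus strand) and -26 to -17 in Ifi44 (chr2:243303841-243303891, minus strand).
Ifit3: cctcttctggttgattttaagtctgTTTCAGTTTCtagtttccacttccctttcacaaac
Rsad2: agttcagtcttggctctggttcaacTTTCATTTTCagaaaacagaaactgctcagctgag
Irf7: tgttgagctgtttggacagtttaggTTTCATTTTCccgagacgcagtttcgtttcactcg
Ifi44: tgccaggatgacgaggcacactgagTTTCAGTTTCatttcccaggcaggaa
Ifi44 held another match at 26 to 35, which is not shown. The element was also in promoters of uncalled members such as Psmb10 and Igtp, whose ratios were 0.01 and 0.00.

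**Figure D4:**
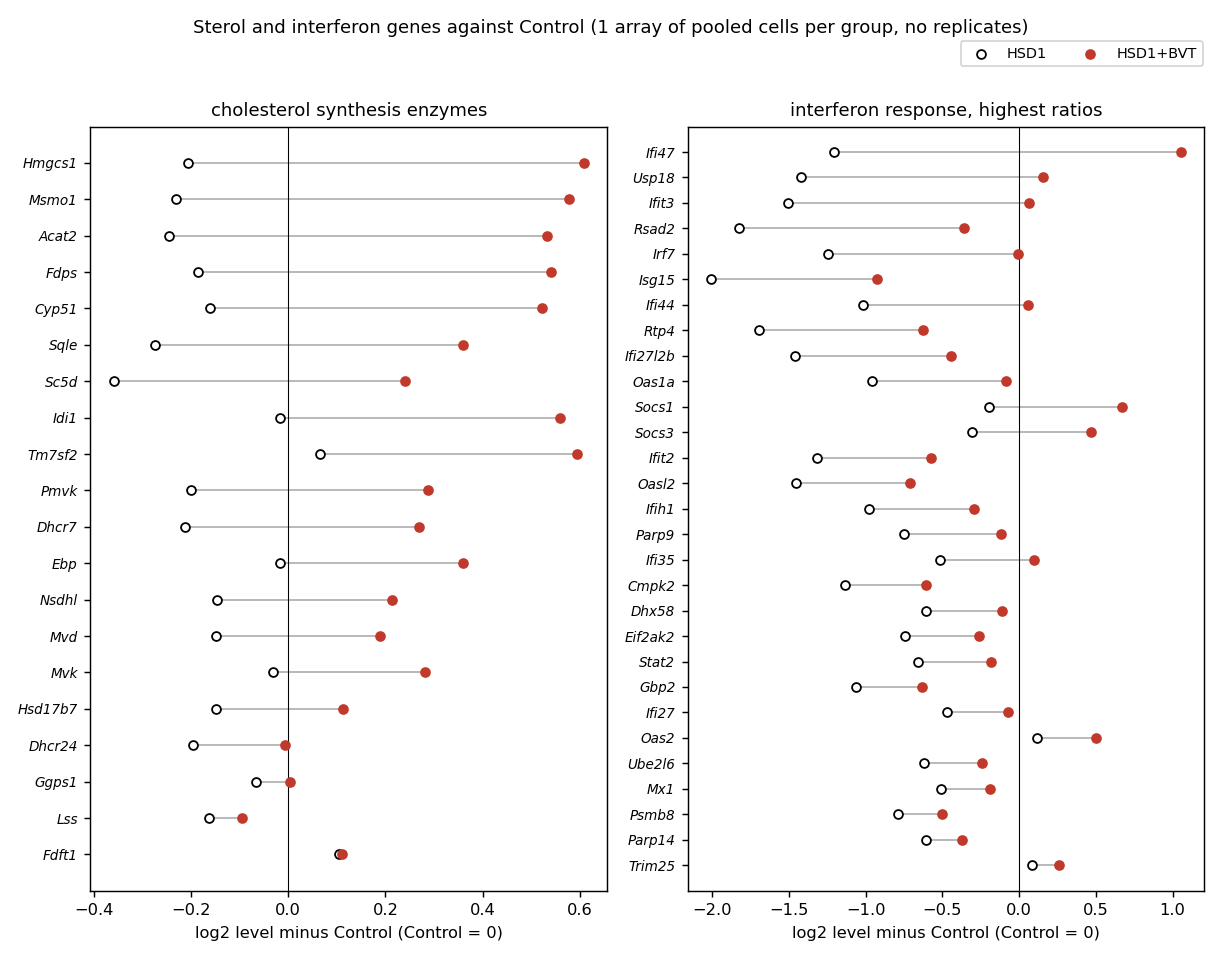
Log2 level minus Control (x axis) for cholesterol synthesis enzymes (left) and the interferon response genes with the highest ratios (right), HSD1 as open circles and HSD1+BVT as red points, 1 array each. Every plotted enzyme's red point is right of its open circle, by 0.01 to 0.81. Most plotted interferon genes start left of Control on the HSD1 array and end nearer to it. These were picked by the ratio of HSD1+BVT over HSD1, so low HSD1 points and shifts to the right are favoured by the choice. Over all 54 measured members the median against Control was -0.51 in HSD1 and -0.20 in HSD1+BVT.

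Other immune genes differed little. Of 71 inflammatory mediators 1 was higher (median 0.04), the chemokine Ccl6, which was 3.11-fold higher at levels of -4.54, -6.03 and -4.39 and had a ratio of 0.33 with normexp. Of 26 chemokines, 20 had ratios above 0 (median 0.20), and that median was -0.02 with normexp. C4a, a complement component, was the called gene among 36 of the acute phase and complement: it read -0.24, -0.91 and 0.10 and was 2.01-fold higher (normexp ratio 0.93). Orm1, an acute-phase protein, read -3.43, 0.72 and -0.17, a ratio of -0.89, so most of its distance from Control was kept on the inhibitor array.

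In the NRF2 and redox list 2 of 41 measured genes were higher and 0 lower (median 0.12, 27 above 0). Both came from the heme and quinone branch. Hmox1, heme oxygenase 1, read -0.90, -1.02 and 0.19 and was 2.33-fold higher. Nqo1, a quinone reductase, read -2.08, -2.02 and -0.88 and was 2.20-fold higher, with 0.98 by normexp. The 8 genes of glutathione synthesis all had ratios above 0 (median 0.30), Srxn1, the sulfiredoxin, had a ratio of 0.80, and Nfe2l2, which encodes NRF2, had 0.22. The 19 genes of peroxide and thioredoxin handling centred on 0.00, with 9 above 0. The core that NRF2 binds (TGACNNNGC, either strand, no mismatch) was in 7 of 34 promoters of this list (20.6%) and 6 of 18 of glutathione transferases (33.3%), beside 12.2% of all promoters and 14.2% of those of measured genes.

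Drug-metabolising genes added 4 calls, none lower. They were 1 of 22 measured glutathione transferases and 3 of 36 genes of xenobiotic and aldehyde metabolism (median 0.09, 22 above 0). Gsta2, an alpha-class glutathione transferase, read -2.40, -3.77 and -1.80 and was 3.90-fold higher, alone among 22 measured transferases (median 0.04). Mtarc2, a molybdenum enzyme of the mitochondrial outer membrane, read 1.89, 1.1 and 2.92 and was 3.55-fold higher. Both read lowest in HSD1 and highest in HSD1+BVT, an order that a call by the ratio to HSD1 favours. Cyp1a1, a P450 known for induction through the aryl hydrocarbon receptor, read -4.49, -4.19 and -2.48 and was 3.26-fold higher, and its relative Cyp1a2 was not well above background in HSD1 and at least 3.12-fold higher. Ces1d, a carboxylesterase, read -4.22, -3.38 and -2.21 and was 2.25-fold higher. Cyp1a1 and Ces1d had ratios of 0.96 and 0.75 with normexp. The 13 aldehyde dehydrogenases had a median of 0.00. Among xenobiotic and aldehyde genes measured on 1 of the 2 arrays, 1 was brighter with inhibitor, Cyp1a2, and 3 were brighter in HSD1.

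Genes of the glucocorticoid pathway differed little in size between the 2 arrays and leaned slightly below 0. None of 52 measured members was called either way, beside 2.06% of all genes, and 18 had ratios above 0 (median -0.04). Among the 33 members above the median level, 7 had ratios above 0 (median -0.06). The list's median against Control was 0.41 in HSD1 and 0.36 in HSD1+BVT. Fkbp5, the co-chaperone that the receptor induces, read 0.62, 2.70 and 2.69 in the order Control, HSD1, HSD1+BVT. Sgk1, a kinase that regulates ion transport, read -1.37, -0.08 and -0.16. Tsc22d3, the anti-inflammatory factor GILZ, read 1.90, 2.92 and 3.17. All 3 stood 2-fold or more above Control on both vector arrays, and their ratios between these arrays were -0.01, -0.08 and 0.25. The 36 target genes had a median of -0.12, with 12 above 0, from Fbxo32, a muscle ubiquitin ligase, at -0.91 to Zbtb16, a transcription factor, at 0.55. Cyp11b1, the adrenal enzyme that makes corticosterone, was lowest of the list at -0.99 and dim on both arrays.

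Hypertrophy genes were mostly flat. Among 27 measured natriuretic peptide and hypertrophy genes 1 was lower and 0 higher (median -0.08). Nppb, brain natriuretic peptide, read 5.05, 5.01 and 5.60 (ratio 0.58) and Nppa, atrial natriuretic peptide, read 4.76, 5.01 and 4.86 (ratio -0.15), so this pair of classical markers differed in sign. The myosin heavy chains Myh6 and Myh7 had ratios of 0.06 and 0.00, skeletal actin Acta1 had 0.13, and Rcan1, a calcineurin target, 0.56. Nppc, C-type natriuretic peptide, read -3.90, -4.46 and -5.58 and was 2.18-fold lower, with -0.71 by normexp.

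In the contractile apparatus, 1 gene of 52 was called, and by a wide margin. Lrrc39, a protein of the sarcomere's M-band, read -0.02, -0.12 and 1.96 and was 4.21-fold higher, and its other probe gave 2.15. The list's median was 0.00. Of 47 genes of calcium handling, 2 were higher (median -0.09): Cacng7, an auxiliary calcium channel subunit, read -2.77, -2.71 and -0.90 and was 3.51-fold higher, and the related Cacng5 was 2.03-fold higher at low signal (0.15 by normexp). The pumps, exchangers and sarcoplasmic reticulum genes held no call.

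Of 50 sodium, potassium and gap junction channels, Kcnq1, the pore of the slow delayed rectifier current, was called, but on 1 of its 2 probes. That probe read 1.00, 0.34 and 1.90 (2.94-fold higher) and the other gave a ratio of -0.08. The 32 potassium channels had 9 ratios above 0 (median -0.17). In the adrenergic, endothelin and angiotensin list 2 of 36 genes were lower and 0 higher (median -0.14). Adrb3, the beta-3 adrenergic receptor, read -3.57, -2.86 and -4.29 and was 2.68-fold lower. Rgs5, a brake on G protein signals that also marks pericytes, read -4.58, -4.87 and -5.98 and was 2.15-fold lower, with -0.70 by normexp.

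Secreted growth and matrix genes leaned below 0. The 50 genes of TGF-beta, activin and BMP signalling had 14 ratios above 0 (median -0.20) and 1 call: Inha, the inhibin alpha subunit that opposes activin, read 0.37, 1.02 and -0.36 and was 2.59-fold lower. The 78 matrix genes had 23 ratios above 0 (median -0.11), and 2 were lower. Spock2, a testican proteoglycan, read -0.44, 0.10 and -1.37 and was 2.76-fold lower, with -0.97 from its other probe. Elane, neutrophil elastase, read -0.92, -0.56 and -1.65 and was 2.12-fold lower. In all 3 genes HSD1 was the highest array and HSD1+BVT the lowest, an order that a call by the ratio to HSD1 favours. None of 69 growth signalling genes was called (median -0.09), and Igfbp4, which binds insulin-like growth factors, stood lowest at -0.98. Gal, which encodes the neuropeptide galanin, read -3.71, 1.20 and -0.48: it was 3.22-fold lower than in HSD1 and still 9.33-fold higher than in Control, and its other probe gave a ratio of -1.67.

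Cell cycle genes had 0 calls of 57 and a median of -0.17, with 13 above 0. Of 20 genes of G2 and mitosis 1 had a ratio above 0 (median -0.28), and of 30 genes of G1 and S phase 9 did (median -0.12). Ube2c, a ubiquitin carrier of mitotic exit, had a ratio of -0.72, the mitotic kinase Plk1 -0.57, and the exception Aurkb 0.24, which was -0.10 by normexp. Immediate early genes had 1 lower member of 28, Arc, an activity-regulated gene, which read -2.55, -2.06 and -3.25 and was 2.29-fold lower (normexp -0.95).

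Marker lists of non-muscle cells differed in sign. Of 16 fibroblast markers 4 had ratios above 0 (median -0.22), and their mean level over Control, HSD1 and HSD1+BVT was 1.29, 1.19 and 1.01. Of 15 smooth muscle and pericyte markers 2 were above 0 (median -0.27), with mean levels of 0.11, 0.23 and -0.12, and 1 was lower, Rgs5. Of 10 measured endothelial markers 2 were above 0 (median -0.16) and 1 was lower, the angiopoietin receptor Tek at -1.05, with Cldn5, Emcn and Tie1 not measured on both arrays. Of 9 epicardial and mesothelial markers 3 were above 0 (median -0.09). Of 11 neural and Schwann cell markers 7 were above 0 (median 0.23), and of 5 measured adipocyte markers 4 were (median 0.19, or -0.08 by normexp), with Cidec, Lep, Lipe and Ucp1 not measured on both arrays and none of either list called. The part of these cells in the matrix, growth factor and cell cycle ratios was not tested, and in pooled cells fewer cells of a type and less RNA per cell cannot be told apart. Beside the 9 higher interferon genes, the 11 measured macrophage and leucocyte markers had a median of -0.11 and 0 calls, and C1qa, Cd163, Cd3e, Cd4, Cd8a and Itgam were not measured on both arrays. Red blood cell and platelet markers all lay above 0 (7 of 7, median 0.60), from low levels, and the median was 0.09 by normexp. Alas2, the heme synthesis enzyme of red cells, was the 1 called, 3.03-fold higher at levels of -5.12, -4.72 and -3.12.

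Several broad functions had no call: 40 genes of the unfolded protein and heat shock responses (median 0.02), 39 of amino acid synthesis and transport, 36 of p53 and apoptosis, 15 of the circadian clock, 26 cardiac transcription factors and 22 of creatine kinase and phosphate transfer. In 2 further lists without a call most ratios lay above 0, namely 28 of 34 lysosome and autophagy genes (median 0.11), with the autophagy kinase Ulk1 highest at 0.87, and 17 of 21 hypoxia targets (median 0.20). The lysosome and autophagy count was 21 under quantile normalization (median 0.05) and 19 with normexp (median 0.02). The hypoxia count was 15 under each of these. The 77 cytosolic ribosomal proteins had a median of 0.10 with 61 above 0, and 0 were called.

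Families grouped by symbol added a few isolated genes. Of 257 solute carriers 6 were higher and 1 lower, and Slc25a34, a mitochondrial carrier, was highest at 5.93-fold, from levels of -4.24, -4.64 and -2.08. Of 22 tubulins and tubulin polymerization proteins 3 were higher: Tppp3, which promotes microtubule assembly, read -2.12, -2.02 and -0.38 (3.12-fold), Tuba3a read -1.68, -1.54 and -0.31 (2.35-fold), and Tppp was 2.01-fold higher at the edge of detection (0.05 by normexp). Of 39 cadherins and protocadherins 2 were higher while 10 had ratios above 0 (median -0.25), with Pcdhgc5 at 5.54-fold from -4.57 to -2.10. Of 63 mitochondrial ribosomal proteins 1 was lower, Mrpl47, which read -3.95, -2.36 and -3.60 (2.37-fold).

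Further genes that met the rule on signal and settings had no list. Cd3g, a T cell receptor chain, read 0.42, -0.27 and 1.30 and was 2.97-fold higher, although Cd3e was not measured on both arrays. Pth2, a neuropeptide, read -1.20, -2.28 and -0.70 (2.99-fold), and Plbd1, a phospholipase B-like protein, read -2.64, -3.04 and -1.47 (2.98-fold). Frzb, a secreted antagonist of Wnt signals, read -0.27, -0.29 and -1.33 and was 2.06-fold lower. Mcf2l, a guanine nucleotide exchange factor, read -1.49, -1.74 and -3.05 and was 2.48-fold lower. Some dim genes outside that rule had larger ratios, and they are named after their values were seen: Prss1, the digestive trypsinogen, was 11.0-fold higher at levels of -4.66, -5.49 and -2.03 (normexp 1.83), and Adcy3, an adenylyl cyclase, was 4.82-fold lower at -5.59, -3.80 and -6.07. Hsdl2, a peroxisomal relative of the hydroxysteroid dehydrogenases outside the lists, was also seen only after its values: it read -1.77, -1.79 and -0.33 and was 2.75-fold higher.

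Calls were more frequent among dim genes. With the measured genes in 4 equal bins by mean level over the 3 arrays, 89 of 2926 genes in the dimmest bin were higher and 52 lower, and 19 of 2925 in the brightest were higher and 0 lower, while the SD of ratios across genes went from 0.49 to 0.26. Olfactory and vomeronasal receptors, a large family of close copies that probes may not tell apart, made up 38 of the 173 higher genes. Of 367 measured members 38 were higher, 4 were lower and 276 had ratios above 0 (median 0.35, but -0.07 by normexp). In the dimmest bin 27 of 276 such receptors were higher, in the next 10 of 67, in the third 1 of 17 and in the brightest 0 of 7. Their share was 9.78% beside 3.04% of all genes in the dimmest bin and 14.9% beside 1.26% in the next. By contrast all 6 called genes of fatty acid oxidation and 8 of the 9 interferon genes were above the median level, where 0.803% of genes were higher.

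**Figure D5:**
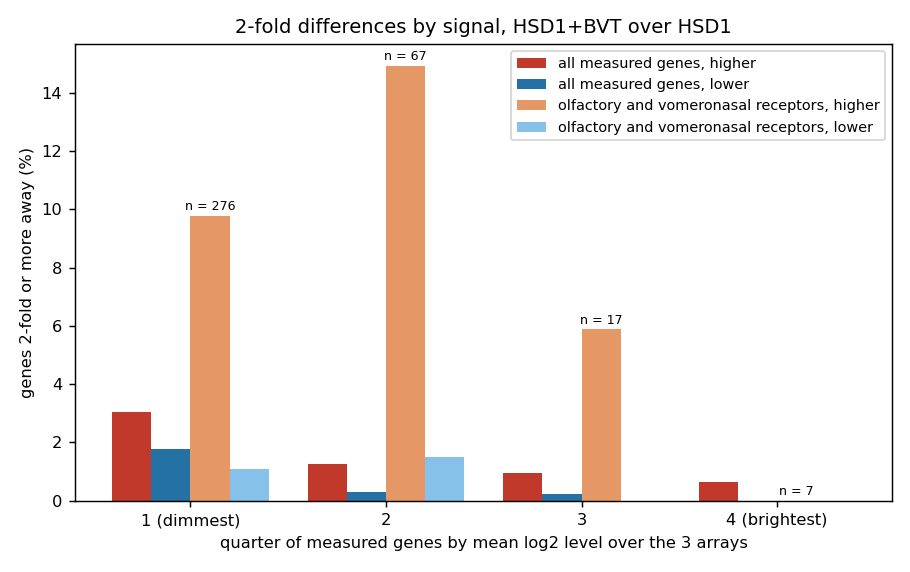
Percent of genes 2-fold or more higher or lower in HSD1+BVT than in HSD1 (y axis), in 4 equal bins of measured genes by mean log2 level over the 3 arrays (x axis), for all measured genes and for olfactory and vomeronasal receptors (n over the bars). Bars go from 3.04% higher in the dimmest bin of all genes to 0.65% in the brightest, and the receptors reach 14.9% in the second bin.

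Genes measured on 1 of the 2 arrays have only a bound. Of the 15155 genes on the arrays, 362 such genes were brighter on the inhibitor array and 533 on the vector array, of which 66 and 150 differed at least 2-fold. The share of spots well above background was 81.2% on the inhibitor array and 82.5% on the vector array. Defb49, a beta-defensin, was at least 27.7-fold higher with inhibitor, Aqp7, the glycerol channel of fat and heart, at least 10.5-fold and Fam210b, a mitochondrial membrane protein, at least 6.23-fold. Amy1, an amylase, was at least 5.34-fold higher. In the other direction Actrt1, an actin-related protein, was at least 11.0-fold lower, Serpina6, the corticosteroid-binding globulin of plasma, at least 4.62-fold and Bco2, which cleaves carotenoids, at least 4.13-fold. Olfactory and vomeronasal receptors filled 2 of the 8 largest bounds above and 5 of the 8 below.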

How the data were processed

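Per the file headers and the submitters' processing notes, spots were extracted with Agilent Feature Extraction 11.0.1.1 from arrays of 1 colour. Intensity was used as deposited, in the form of a processed spot signal from which that software had subtracted background. The authors' deposited table of log2 values served as an alternative; the sources used here do not say how it was normalized. Control and outlier spots were left out, log2 signals were set to 0 at the array's percentile 75, and spots of a probe were averaged. Of 30335 probes, 17984 matched 1 gene by RefSeq accession (GRCr8) and 12351 matched none; of several probes of a gene the one with the highest mean signal was used. Genes well above background on both arrays were called at 2-fold. No test was run, since each group had 1 array, and precision is limited by their number.

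The 47 typed gene lists and 26 symbol families, the alternatives and the members were chosen with earlier results of these data known. Genes were named if they were among the 20 highest or lowest called genes that were also called in the authors' table and after quantile normalization, with the brighter array above its median signal (53 higher and 8 lower genes met this); if they were called in, or at the extreme of, a list, role or family; if they had 1 of the 8 largest bounds; if they were fixed by name; or as other members beside their list's count. Bounds compare the bright array with the dimmest detected probe of the other array, or with the gene's own signal there if higher. Python 3.11.15, numpy 2.4.6, pandas 2.3.3, matplotlib 3.10.9, R 4.3.3 and limma 3.58.1 were used. The calling was tested on data simulated from the HSD1 array with the same spot noise at all signal levels. Differences between cultures or scans were not simulated, so that test covers the calculation and not the reliability of the calls. Some genes counted in the lists are not reported here by name.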

Additional observations from a re-analysis of the deposited data

How the results depend on the processing

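The 241 calls depended most on the handling of dim probes. The planned normexp background correction could not be used as written, because its fit on the HSD1 array was spoiled by 1 spot with a very bright local background; fitted on unflagged spots, a repair chosen after seeing the data, it left 75 genes 2-fold apart, 60 higher and 15 lower. Without the filter on dim probes 1533 genes passed, 517 higher and 1016 lower. Above the median level 54 passed, 47 higher and 7 lower. At 1.5-fold 1060 genes passed and at 3-fold 47. Under quantile or cyclic loess normalization, a percentile over detected probes, a median ratio of 0, the authors' values, the mean of probes and outlier spots kept, the count ran from 230 to 248. Of the 241 genes 226 stayed 2-fold apart in the authors' values, 230 under quantile, 223 under cyclic loess and 73 under normexp, where 167 dropped below 2-fold and Oas1f turned to -0.050. The sign of 21 of 72 list medians turned under normexp and of 1 to 10 under the other scalings and the mean of probes. Of 21 called genes with another measured probe, 16 had it on the same side of 0 and 5 at 2-fold. No paired analysis was possible because each group had 1 array. Differences between cultures, and of scan from inhibitor, are beyond these data.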

Other observations

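Probes without a gene name were left out of the account above. Of 8641 such probes measured on both arrays, 144 were 2-fold or more higher in HSD1+BVT than in HSD1 and 50 were lower. The shares of the 11701 measured genes were 1.48% higher and 0.581% lower.

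B3galt2, a galactosyltransferase outside the lists that was noticed after its values were seen, read -1.07 in Control, -1.50 in HSD1 and -0.05 in HSD1+BVT, a ratio of 1.44, and its 2 other probes gave 1.21 and 1.44. The apolipoprotein genes Apoa4 and Apoa5, found in the same way, had ratios of 1.14 and 1.20, and with normexp 0.92 and 0.47.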
